A study of Homo sapiens with 4 samples.

Results

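The unfolded protein response genes examined here are 31 genes named for their part in the response to misfolded protein in the endoplasmic reticulum (ER), and their signals were read from the deposited table of 4 Affymetrix arrays. Each gene was represented by the probe set with the highest mean signal among the probe sets that the platform annotation assigns to that gene alone. Such a probe set was found for 30 of the 31 genes, out of 19775 genes on the array. SYVN1, an ER ubiquitin ligase gene, has no probe set of its own in the annotation and is not analysed here. DERL3, a Derlin family gene, lay below the signal minimum of 78.1 used for testing, which left 29 members among 12830 genes tested. The arrays came from 2 human non-small cell lung cancer lines: H1299, derived from a lymph node metastasis, and A549, an adenocarcinoma line with alveolar epithelial features. The groups were H1299 cells with hMOF siRNA, H1299 cells with scramble siRNA, A549 cells with hMOF siRNA and A549 cells with scramble siRNA, each with 1 array, and every culture received its siRNA by Lipofectamine in medium with 10% fetal bovine serum. hMOF is the histone H4 acetyltransferase encoded by KAT8, and the arrays allow its siRNA to be compared with scramble and one line with the other. No label used here gives the siRNA sequences, the hours of exposure or whether cultures were pooled. The treatment tag of 2 arrays names the other siRNA, and groups follow the source names.

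Misfolded protein in the ER lumen is sensed by the membrane proteins ATF6, IRE1 (gene ERN1) and PERK (gene EIF2AK3), which are held inactive by the chaperone BiP (gene HSPA5). ATF6 is cleaved to release a transcription factor that induces chaperones, IRE1 splices the XBP1 transcript so that it encodes an active factor for degradation and translocation genes, and PERK phosphorylates eIF2alpha, which lowers general translation and favours ATF4 and its targets. The members were sorted by these arms, with 14 genes under ATF6, 9 under IRE1 and 8 under PERK, although several targets answer to more than one arm. Cleavage, phosphorylation and splicing were not measured, and the signals report transcript amount only. In extracts of whole cultures, fewer cells with a transcript and less of it per cell cannot be told apart.

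The promoter stretches below are shown because they hold matches to the elements through which ATF6, XBP1 and ATF4 are known to act. RefSeq promoter windows (GRCh38.p14, 250 bases before to 50 after a gene's start) were matched by symbol for 28 of the 31 members. They were searched on both strands for the ER stress response element ERSE (CCAAT and CCACG with 9 bases between them), for ERSE-II (ATTGG and CCACG with 1 base between them), for the core TGACGTGG of the unfolded protein response element, and for the ATF4 composite site TGATGNAAN. ERSE was present in 5 members (17.9%: HSPA5, HSP90B1, PDIA6, CRELD2 and XBP1) and in 0.0916% of 27305 genes with such a window. ERSE-II was present in 3 members (10.7%: HYOU1, HERPUD1 and SDF2L1) and in 0.0696% of all genes. The TGACGTGG core occurred in 1 member, HYOU1 (3.57%, against 0.927% of all genes), where it overlapped an ERSE-II match. The ATF4 composite site occurred in 4 members (14.3%: CHAC1, ATF3, HERPUD1 and CREB3L2, against 4.45%). By arm, ERSE was found in 4 of 13 ATF6 members with a window, in 1 of 7 IRE1 members and in 0 of 8 PERK members. The ATF4 composite site was found in 2 of 13, 0 of 7 and 2 of 8 of them. Its CREB3L2 match began at base 17 after the start. A match describes the letters of this window and is not evidence of a bound site. The members were picked as genes of the response that these elements serve. Their higher shares are therefore a description and not an independent result. Stretches upstream of the start follow, 5′ to 3′ on the gene's strand, with the matched elements in capitals. The second ERSE of HSP90B1, the CRELD2 element, both HYOU1 ERSE-II elements, the SDF2L1 element and the ATF4 composite sites of HERPUD1 and CHAC1 read on the opposite strand.
HSPA5: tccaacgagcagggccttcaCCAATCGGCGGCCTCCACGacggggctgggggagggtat
HSP90B1: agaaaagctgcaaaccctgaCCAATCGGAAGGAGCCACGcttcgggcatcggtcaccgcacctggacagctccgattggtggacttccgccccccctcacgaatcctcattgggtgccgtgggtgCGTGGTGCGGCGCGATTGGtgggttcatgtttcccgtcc
PDIA6: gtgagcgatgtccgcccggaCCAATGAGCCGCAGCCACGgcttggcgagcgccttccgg
CRELD2: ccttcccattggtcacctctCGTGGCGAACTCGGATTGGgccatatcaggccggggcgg
XBP1: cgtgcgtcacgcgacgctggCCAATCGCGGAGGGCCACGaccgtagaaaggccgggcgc
HYOU1: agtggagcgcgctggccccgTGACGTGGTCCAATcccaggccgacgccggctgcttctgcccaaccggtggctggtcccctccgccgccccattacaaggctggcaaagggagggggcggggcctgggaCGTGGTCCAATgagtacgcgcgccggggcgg
HERPUD1: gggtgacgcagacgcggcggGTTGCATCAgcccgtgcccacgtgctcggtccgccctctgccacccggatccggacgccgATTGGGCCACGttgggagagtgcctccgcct
SDF2L1: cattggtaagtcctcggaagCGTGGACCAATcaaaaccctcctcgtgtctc
CHAC1: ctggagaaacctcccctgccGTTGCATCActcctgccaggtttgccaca
These stretches lie at chr9:125241371-125241429 (HSPA5, minus strand), chr12:103930196-103930359 (HSP90B1, plus), chr2:10812833-10812891 (PDIA6, minus), chr22:49918534-49918592 (CRELD2, plus), chr22:28800583-28800641 (XBP1, minus), chr11:119057254-119057413 (HYOU1, minus), chr16:56931945-56932055 (HERPUD1, plus), chr22:21642094-21642144 (SDF2L1, plus) and chr15:40953241-40953289 (CHAC1, plus).

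Median signals of the 4 arrays lay between 73.3 and 75.4, and having 1 array per condition bounds how precise any value can be. KAT8 signal was 106 with hMOF siRNA against 402 with scramble in A549, and 61.8 against 241 in H1299 (log2 fall of 1.62, SE 0.11, limma adjusted p = 0.0288). All 10 A549 epithelial and metabolic markers examined were called lower in H1299. Their summed signal there was 2935 with hMOF siRNA and 3813 with scramble, against 68537 and 76183 in A549. In H1299 only KRT8, KRT18 and AKR1C1 lay above the signal minimum, and KRT18 (2459 and 3320) made up most of the sum. The other markers entered the test through their A549 signal. The marker lists were chosen with earlier results of these data known, so the 10 calls are a description and not an independent result. Of 5 mesenchymal markers examined for H1299, 3 were called higher in H1299 (VIM, ZEB1 and TWIST1) and 1, CDH2, was called lower there, while NES was below the signal minimum. Markers of blood, stromal, endothelial and liver cells summed to between 575 and 645 on each array, over the 7 of 8 listed genes that were measured. PTPRC was at 31.6 to 41.5, and COL1A2, DCN, CDH5 and ALB were also below the signal minimum. PECAM1 at 205 to 224 and HBB at 149 to 186 lay above the minimum on every array.

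**Figure D1:**
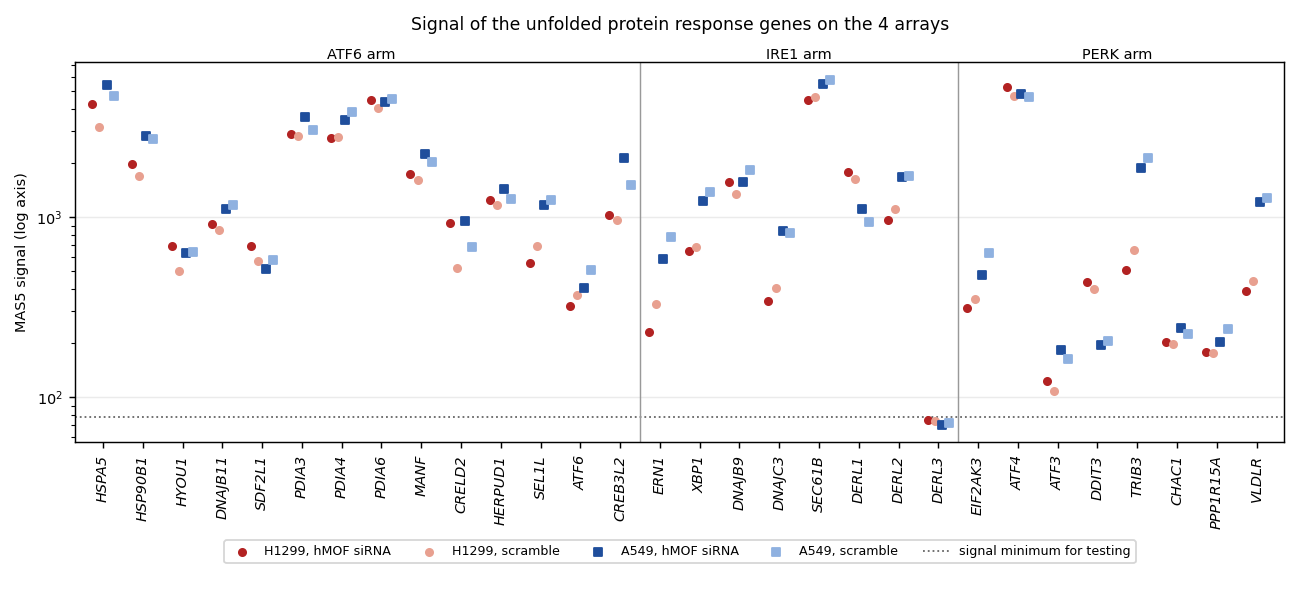
MAS5 signal (log axis) of the 30 measured members on each array, by arm; every point is 1 array, and levels are to be compared within a gene, not between genes. The H1299 points (circles) sit below the A549 points (squares) for TRIB3, VLDLR, ERN1, XBP1, DNAJC3 and SEL1L and above them for DDIT3 and DERL1. For these genes, dark and pale points of the same line lie closer together than points of different lines. For CRELD2, both hMOF siRNA points (dark) lie above both scramble points (pale).

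With hMOF siRNA, no member of the response passed the test over both lines. Of 29 members tested, 0 were called higher and 0 lower by limma with cell line as a block (Benjamini-Hochberg adjusted p under 0.05), beside 1.16% higher and 2.41% lower (3.57% in all) of the 12830 genes, and 2 members had an unadjusted p under 0.05, beside 23.8% of all genes. No member reached a 2-fold ratio in A549 (1.86% of all genes did) or in H1299 (3.43%). Over the members, log2 ratios of hMOF siRNA to scramble were centred (median) on -0.06 in A549 and on 0.08 in H1299, against -0.02 and -0.01 over all genes tested. Ratios are of signal plus an offset of 29.06, which pulls ratios of dim genes toward 0. The 95% limma interval of every one of the 29 members lay within 2-fold in either direction, and 24 lay within 1.5-fold. These intervals take the 2 lines as the only repeats, with 1 residual degree of freedom per gene before moderation. Each covers the brightest probe set only and does not bound the ratio on other probe sets. The lowest limit was a log2 of -0.70, for ERN1, and the highest was 0.97, for CRELD2. Ratios were above 0 in both lines for 11 members (37.9%, against 31.6% of all genes), below 0 in both for 10 (34.5%, against 36.7%) and of opposite sign for 8 (27.6%, against 31.7%), shares close to those of the whole array. In 7 of those 8 (24.1% of members) the ratio was above 0 in H1299 and below it in A549, beside 16.9% of all genes. Ratios stayed within 0.5 of 0 in both lines for 28 members, CRELD2 being the exception, beside 77.4% of all genes.

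**Figure D2:**
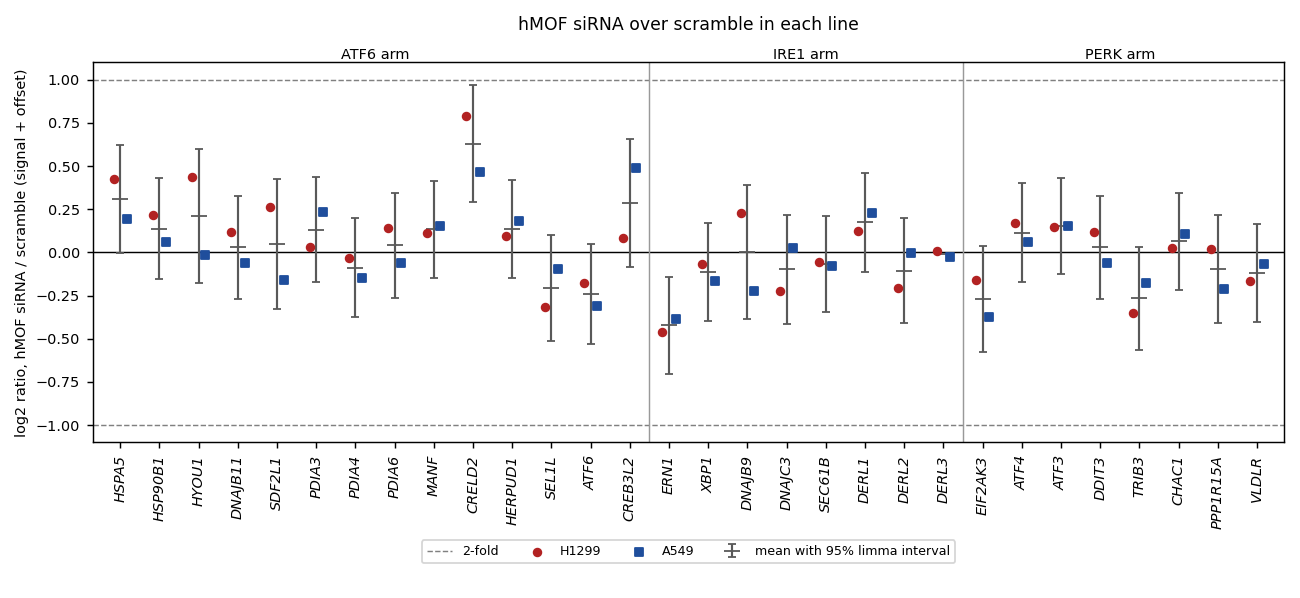
Log2 ratio of hMOF siRNA to scramble (signal plus offset) in H1299 (circles) and A549 (squares) for each member, with the mean of the lines and its 95% limma interval; dashed lines mark 2-fold and DERL3 was not tested. All intervals stay between the dashed lines, with CRELD2 highest at 0.63 and ERN1 lowest at -0.42.

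In the ATF6 arm, chaperone genes showed small ratios. HSPA5, the BiP gene, had signals of 5407 with hMOF siRNA and 4724 with scramble in A549, and 4272 and 3175 in H1299 (log2 0.19 and 0.42; mean 0.31, SE 0.12, limma adjusted p = 0.211). HSP90B1, which encodes the ER member of the HSP90 family and was read on an _x_at probe set because others are also annotated to a microRNA, had 2829 with hMOF siRNA and 2713 with scramble in A549, and 1968 and 1690 in H1299 (0.06 and 0.22; adjusted p = 0.525). On these probe sets both genes were brighter with hMOF siRNA in each line, yet their H1299 arrays lay below the A549 arrays whatever the siRNA. The dimmer HSPA5 probe set was lower with hMOF siRNA in both lines (-0.12 in A549 and -0.45 in H1299). The dimmer HSP90B1 probe set had 310 with hMOF siRNA and 293 with scramble in A549, and 324 and 251 in H1299. HYOU1, a nucleotide exchange factor for BiP, was at 637 with hMOF siRNA against 645 with scramble in A549, and 693 against 505 in H1299 (-0.02 and 0.44; adjusted p = 0.464), level in A549 and brighter with hMOF siRNA in H1299, a difference between lines that was not tested. PDIA4, a disulfide isomerase gene, had 3486 with hMOF siRNA and 3861 with scramble in A549, and 2747 and 2805 in H1299. With PDIA3 and PDIA6 of the same family it had mean log2 ratios between -0.09 and 0.13, and the BiP partners DNAJB11 and SDF2L1 were at 0.03 and 0.05.

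CRELD2, an ER stress-inducible gene for a secreted and ER-resident protein, had the largest mean ratio of the set. Its signal was 953 with hMOF siRNA and 681 with scramble in A549, and 926 and 523 in H1299. Both hMOF siRNA arrays stood above both scramble arrays (log2 0.47 and 0.79; mean 0.63 ± 0.23, SD, n = 2 lines; SE 0.13; limma adjusted p = 0.0738). Its adjusted p lay between 0.0517 and 0.0831 in the other fits with a block. MANF, a gene for another ER stress-inducible secreted factor, was at 2248 with hMOF siRNA against 2016 with scramble in A549, and 1746 against 1614 in H1299 (0.15 and 0.11; adjusted p = 0.520). HERPUD1, an ER membrane protein gene of the degradation machinery, was at 0.18 and 0.09 and did not pass. Among the degradation and sensor genes of this arm, values ran the other way for some. SEL1L, the adaptor of the SYVN1 ligase, had 1164 with hMOF siRNA and 1245 with scramble in A549, and 554 and 696 in H1299 (-0.09 and -0.31; adjusted p = 0.368). ATF6 itself had 406 with hMOF siRNA and 510 with scramble in A549, and 322 and 368 in H1299 (-0.31 and -0.18; adjusted p = 0.271). CREB3L2, an ER-anchored transcription factor related to ATF6, had 2141 with hMOF siRNA against 1515 with scramble in A549, and 1028 against 969 in H1299 (0.49 and 0.08; adjusted p = 0.305), and the A549 array with hMOF siRNA stood above the other 3 arrays. Its other probe set above the minimum was at -0.11 and 0.13.

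In the IRE1 arm, 5 of 7 tested members had mean ratios below 0, beside 6694 of all 12830 genes tested, and none was called. ERN1, the IRE1 gene, had 586 with hMOF siRNA and 773 with scramble in A549, and 232 and 329 in H1299. Within each line the hMOF siRNA array was the dimmer (log2 -0.38 and -0.46; mean -0.42 ± 0.05, SD, n = 2 lines; SE 0.11; limma adjusted p = 0.104). XBP1, the transcript that IRE1 splices, had 1224 with hMOF siRNA against 1373 with scramble in A549, and 654 against 685 in H1299 (-0.16 and -0.06; adjusted p = 0.594). DNAJB9, a BiP co-chaperone gene and XBP1 target, had 1574 with hMOF siRNA and 1840 with scramble in A549, and 1578 and 1343 in H1299. Its ratio was -0.22 in A549 and 0.23 in H1299, a mean of 0.003. DNAJC3, another BiP co-chaperone gene, was at 0.03 and -0.22, and SEC61B, a translocon subunit gene, at -0.08 and -0.05. The Derlin genes, whose products serve export from the ER for degradation, were at 0.23 and 0.12 for DERL1 and -0.01 and -0.21 for DERL2. DERL3 was at or below 74.9 on all 4 arrays, under the signal minimum.

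In the PERK arm, the stress-induced transcription factors were nearly level. EIF2AK3, the PERK gene, had 479 with hMOF siRNA and 630 with scramble in A549, and 313 and 353 in H1299 (-0.38 and -0.16; limma adjusted p = 0.256). On their brightest probe sets the 3 sensor genes ATF6, ERN1 and EIF2AK3 had ratios below 0 in both lines, as did 36.7% of all genes, and none passed. A dimmer probe set of ATF6 was at 0.22 in H1299, and one of ERN1 at 0.33. ATF4, the factor whose translation rises under PERK activity, had 4867 with hMOF siRNA against 4668 with scramble in A549, and 5304 against 4709 in H1299 (0.06 and 0.17; adjusted p = 0.591). DDIT3, which encodes the pro-apoptotic factor CHOP, had 196 with hMOF siRNA and 205 with scramble in A549, and 437 and 401 in H1299 (-0.06 and 0.12; adjusted p = 0.910). The values of DDIT3 split by line and not by siRNA. ATF3, a stress-induced repressor and activator, was at 184 with hMOF siRNA against 163 with scramble in A549, and 124 against 109 in H1299 (0.15 and 0.15; adjusted p = 0.461). Of the downstream genes, TRIB3, a pseudokinase gene induced by ATF4 and CHOP, had 1876 with hMOF siRNA and 2127 with scramble in A549, and 507 and 655 in H1299 (-0.18 and -0.35; adjusted p = 0.248). CHAC1, a glutathione-degrading enzyme gene and ATF4 target, was at 0.10 and 0.02. PPP1R15A, the regulatory subunit that directs eIF2alpha dephosphorylation, was at -0.21 and 0.02. VLDLR, a lipoprotein receptor gene induced through PERK and ATF4, was at -0.07 and -0.17. The 8 PERK members together were centred (median) at -0.06 for A549 and 0.02 for H1299, against 0.02 and 0.11 for the 14 ATF6 members and -0.08 and -0.06 for the 7 tested IRE1 members.

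The dimmer probe sets of a gene did not always follow the brightest. Of the 30 measured members, 15 had at least 2 probe sets at or above the signal minimum. For 7 of these the mean siRNA ratio had one sign on all probe sets, and for 8 the sign was mixed. HSPA5 was higher with hMOF siRNA on its brightest probe set and lower on the other (log2 -0.12 in A549 and -0.45 in H1299), and averaging its probe sets gave 0.01. DERL1 was at 0.23 and 0.12 on its brightest probe set, but at -0.42 and -0.36 on the second and at -0.47 in both lines on the dimmest of those tested. ERN1 was at -0.18 and 0.33 on its dimmer probe set, and averaged -0.17 over both (limma adjusted p = 0.422). By contrast, all 3 DNAJB9 probe sets were below 0 in A549 (-0.22 to -0.39) and above 0 in H1299 (0.23 to 0.43). SEL1L lay below 0 in both lines on all 3 of its probe sets at or above the minimum. Whether the probe sets of a gene read different transcripts was not tested.

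**Figure D3:**
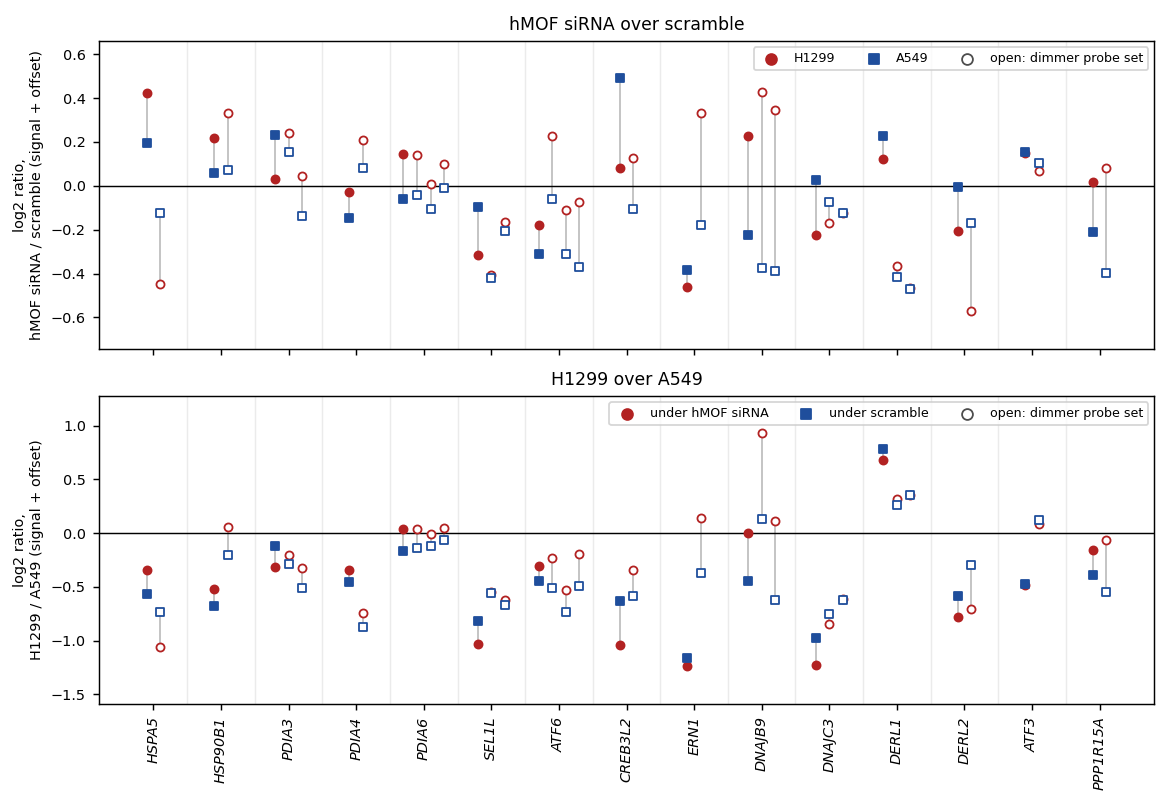
Log2 ratios (signal plus offset) on every probe set at or above the signal minimum for the 15 members with at least 2 of them, hMOF siRNA over scramble above and H1299 over A549 below; filled symbols mark the brightest probe set of a gene, open symbols the dimmer ones. Probe sets of HSPA5 and DERL1 point in opposite directions for the siRNA, and those of ATF3 and DNAJB9 for the line.

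Other genes of ER folding, degradation and entry, and of the ATF4 programme, were examined as lists beside the members. Among 20 other ER-associated degradation genes tested, 1 fell (2.41% of all genes did) and none rose (1.16%). That gene was EDEM1, which delivers misfolded glycoproteins to degradation and is an XBP1 target in textbook accounts. Its signal was 692 with hMOF siRNA and 1372 with scramble in A549, and 129 and 282 in H1299 (log2 -0.96 and -0.98; mean -0.97, SE 0.11, limma adjusted p = 0.0321). In the same list AUP1 and UFD1, which serve lipid droplet-linked degradation and extraction with VCP, had ratios of 0.47 and 0.69, and of 0.32 and 0.62 (A549, H1299), and did not pass (adjusted p = 0.0706 and 0.114).

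Of 23 other ATF4 target genes tested, 2 fell (8.70%, beside 2.41% of all genes) and none rose (1.16%). PHGDH, the first enzyme of serine synthesis, had 360 with hMOF siRNA and 812 with scramble in A549, and 261 and 809 in H1299 (-1.11 and -1.53; limma adjusted p = 0.0321). STC2, a secreted glycoprotein gene, had 306 with hMOF siRNA against 714 with scramble in A549, and 190.5 against 357 in H1299 (-1.15 and -0.81; adjusted p = 0.0389); the call was lost when its probe sets were averaged (mean -0.59, adjusted p = 0.0693). GDF15, a stress cytokine gene read on an _x_at probe set, was at 160 with hMOF siRNA against 504 with scramble in A549, and 41.8 against 33.9 in H1299. With the offset added to each signal, its linear ratio was 0.354 in A549 and 1.13 in H1299, where signals lay near the offset. It was not called. The list median was -0.20 in A549 and 0.20 in H1299. Of the 23 genes, 10 had a ratio above 0 in H1299 and below 0 in A549 (43.5%, beside 16.9% of all genes). That difference between lines was not tested.

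Among 20 ER entry genes, 1 rose (1.16% of all genes did) and none fell (2.41%). SRP19, a signal recognition particle subunit gene, had 2337 with hMOF siRNA and 1457 with scramble in A549, and 2749 and 1452 in H1299 (0.67 and 0.91; limma adjusted p = 0.0468, and 0.0514 with no signal filter). SSR1 and SEC11C, which encode a translocon-associated and a signal peptidase subunit, were at -0.50 and -0.70, and at 0.16 and 0.87, and did not pass. None of 18 other ER folding genes was called, though 8 had an unadjusted p under 0.05, beside 23.8% of all genes. Its largest ratios belonged to the ER oxidase gene ERO1B (-0.68 in A549, -0.60 in H1299; adjusted p = 0.0551), to SIL1, a nucleotide exchange factor for BiP (0.43, 0.48; 0.0903), and to the isomerase gene P4HB (0.33, 0.56; 0.114). None of 22 sensor regulator and death effector genes was called, with 10 at an unadjusted p under 0.05, beside the same 23.8%. Largest there were BCL2L11 (-0.42, -1.03), BAK1 (-0.58, -0.79) and the eIF2alpha kinase gene EIF2AK2 (-0.71, -0.61). Of 12 cytosolic heat shock genes none was called and 0 had an unadjusted p under 0.05, with HSPD1 (0.15, 0.48), DNAJA1 (0.12, 0.51) and BAG3 (-0.19, -0.41) the farthest from 0.

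**Figure D4:**
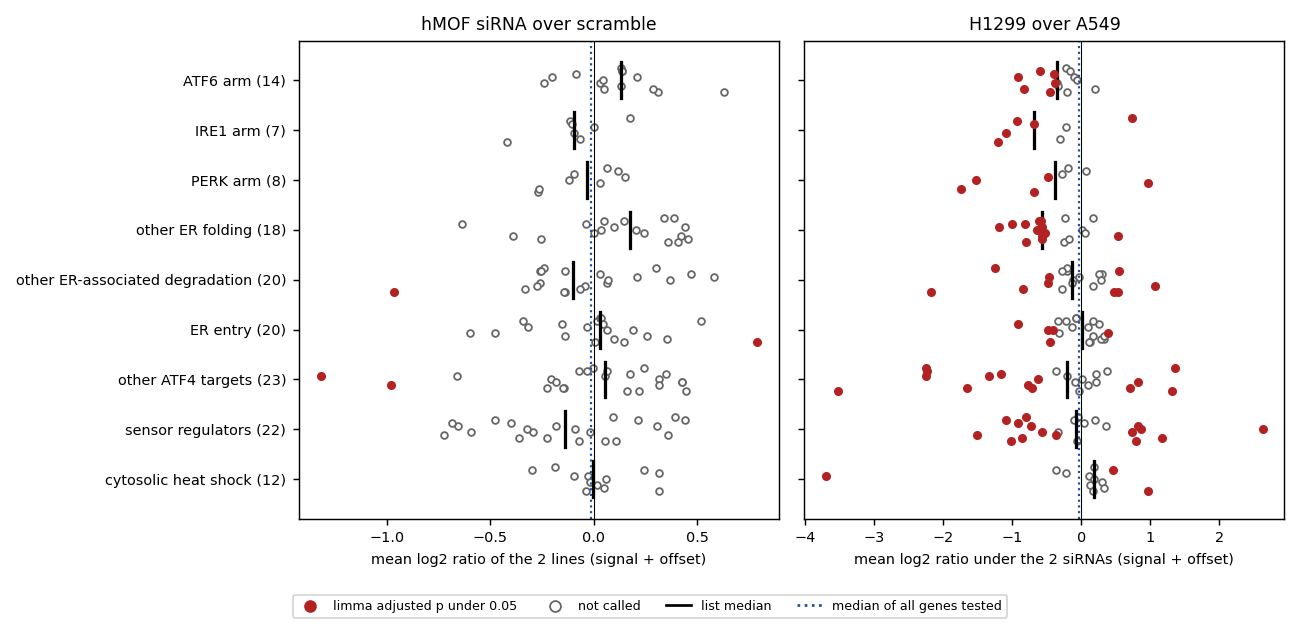
Mean log2 ratio (signal plus offset) of each tested gene in the 3 arms and in 6 further lists, hMOF siRNA over scramble on the left and H1299 over A549 on the right; filled points passed limma at an adjusted p under 0.05, black bars are list medians and the dotted line is the median of all genes tested. The arms hold no filled point for the siRNA and 16 for the line.

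Between the lines, 14 of 29 members were called lower in H1299 than in A549 and 2 higher, by limma with siRNA as a block. At 2-fold under hMOF siRNA, 6 were lower (11.9% of all genes were) and 1, DDIT3, was higher (9.7%), and under scramble 3 were lower (11.1%) and 0 higher (9.04%). By the test, the share called lower was 48.3%, beside 27.3% of all genes tested, and the share called higher was 6.90%, beside 25.1%. In all, 55.2% of members were called, beside 52.4% of all genes. The members' median log2 ratio of H1299 to A549 was -0.32 under hMOF siRNA and -0.45 under scramble, against -0.02 and -0.04 over all genes. On 21 members (72.4%) both H1299 arrays lay below both A549 arrays, beside 37.6% of all genes, and on 2 (6.90%) they lay above, beside 32.7%. The largest differences were in the PERK arm and the smallest of the called ones in the ATF6 arm. This test takes the siRNAs as repeats, and nothing in the labels says whether the cultures were separate, so the spread it measures is that of these arrays and may be technical. The epithelial markers given above differed between the lines as well, and their part in these differences was not tested.

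**Figure D5:**
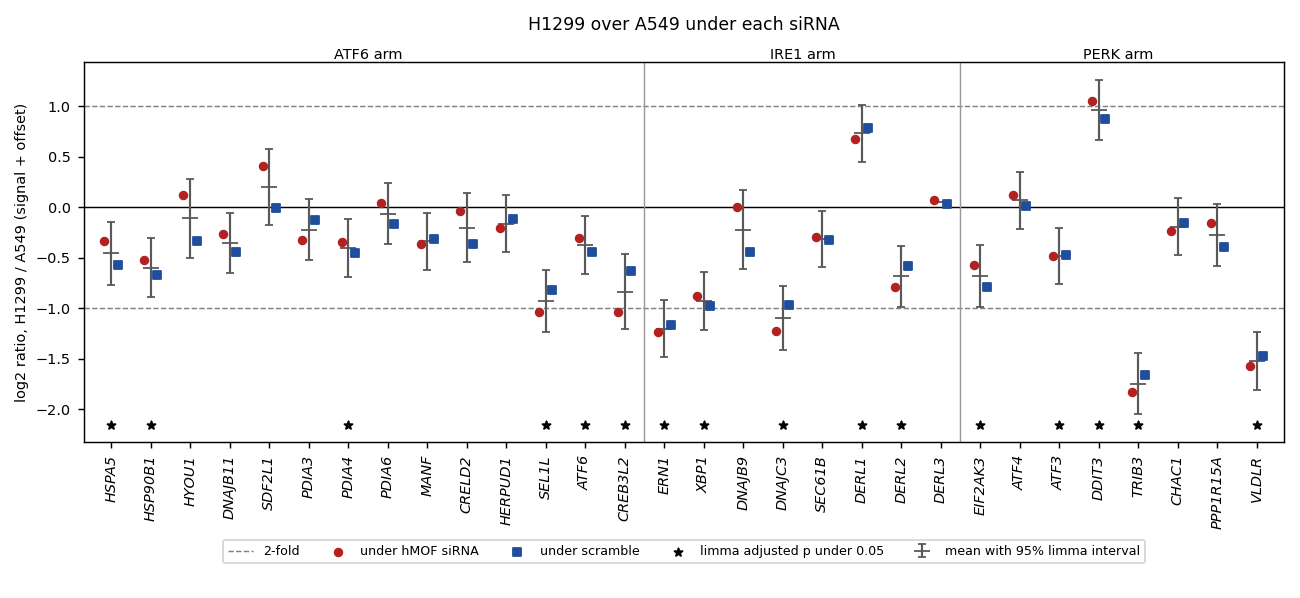
Log2 ratio of H1299 to A549 (signal plus offset) under hMOF siRNA (circles) and under scramble (squares), with the mean and its 95% limma interval; stars mark a limma adjusted p under 0.05 and dashed lines 2-fold. TRIB3 and VLDLR lie lowest, at -1.74 and -1.52, and DDIT3 and DERL1 are the only starred members above 0.

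PERK arm members lay at both ends of the range. TRIB3 had 507 with hMOF siRNA and 655 with scramble in H1299, against 1876 and 2127 in A549, 3.35-fold lower in H1299 (log2 -1.74, SE 0.11, limma adjusted p = 0.000480). VLDLR had 392 and 443 in H1299, against 1221 and 1283 in A549 (-1.52, SE 0.11, adjusted p = 0.000623). DDIT3, which induces TRIB3 in textbook accounts, went the other way, with 437 and 401 in H1299 against 196 and 205 in A549, 1.95-fold higher (0.97, SE 0.11, adjusted p = 0.00260). ATF4 signals overlapped between the lines (0.07, 95% interval -0.22 to 0.35, adjusted p = 0.637), as 5304 and 4709 in H1299 and 4867 and 4668 in A549. EIF2AK3 was 1.60-fold lower in H1299 (-0.68, adjusted p = 0.00837). ATF3 was called lower on its brightest probe set (-0.48, adjusted p = 0.0181). Its other probe set above the minimum was at 0.08 under hMOF siRNA and 0.12 under scramble. The call was lost when both were averaged (-0.19, adjusted p = 0.178). A further ATF3 probe set had a mean below the minimum and was left out of that average. It was higher in H1299, at 0.69 under hMOF siRNA and 0.35 under scramble. Its signals were 94.33 with hMOF siRNA and 80.8 with scramble in H1299, against 47.63 and 57.4 in A549. The lower call for ATF3 thus rests on its brightest probe set alone. CHAC1 (-0.19) and PPP1R15A (-0.27) were not called.

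For the IRE1 arm, 4 of 7 tested members were called lower in H1299 and 1 higher, beside 27.3% and 25.1% of all genes. ERN1 had 232 with hMOF siRNA and 329 with scramble in H1299, against 586 and 773 in A549, 2.30-fold lower (-1.20, SE 0.11, limma adjusted p = 0.00119). Its other probe set above the minimum was at 0.14 under hMOF siRNA and -0.37 under scramble, and averaging both gave -0.66 (adjusted p = 0.00624). XBP1 had 654 and 685 in H1299, against 1224 and 1373 in A549, 1.90-fold lower (-0.93, SE 0.11, adjusted p = 0.00255). The kinase and its substrate transcript were thus both lower in H1299. DNAJC3 had 341 and 403 in H1299, against 835 and 818 in A549 (-1.10, adjusted p = 0.00213), and DERL2 had 963 and 1117 in H1299, against 1679 and 1686 in A549, 1.61-fold lower (-0.68, adjusted p = 0.00794). DERL1 had 1787 and 1640 in H1299, against 1105 and 940 in A549, 1.66-fold higher (0.73, SE 0.11, adjusted p = 0.00531), and all 3 of its probe sets at or above the minimum were higher in H1299 (0.46 when averaged, adjusted p = 0.0147). DNAJB9 was not called, and its ratio of H1299 to A549 was 0.004 under hMOF siRNA and -0.45 under scramble. SEC61B was at -0.31 (adjusted p = 0.0642).

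Of the 14 ATF6 arm members, 6 were called lower in H1299 and none higher, beside 27.3% and 25.1% of all genes. SEL1L had 554 with hMOF siRNA and 696 with scramble in H1299, against 1164 and 1245 in A549, 1.90-fold lower (-0.92, SE 0.12, limma adjusted p = 0.00327). CREB3L2 had 1028 and 969 in H1299, against 2141 and 1515 in A549 (-0.83, SE 0.14, adjusted p = 0.00798). Its ratio was -1.04 under hMOF siRNA and -0.63 under scramble, while its other probe set above the minimum was at -0.35 and -0.58. PDIA4 had 2747 and 2805 in H1299, against 3486 and 3861 in A549, and was at -0.60 when its probe sets were averaged (limma adjusted p = 0.00666). HSP90B1 (-0.60, adjusted p = 0.0109), HSPA5 (-0.45, adjusted p = 0.0298), PDIA4 (-0.40, adjusted p = 0.0343) and ATF6 (-0.37, adjusted p = 0.0425) were lower by between 1.30-fold and 1.51-fold. Each of these 4 calls was lost under at least 1 alternative: all but HSP90B1 when arrays were centred on their medians and without the block, and HSP90B1 when its probe sets were averaged (-0.33, adjusted p = 0.0534). MANF and DNAJB11 lay close to the threshold (-0.34 and -0.36, adjusted p = 0.0512 and 0.0523). CRELD2, HYOU1, SDF2L1 and PDIA6 overlapped between the lines, and PDIA3 and HERPUD1 did not overlap but were not called.

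Outside the members, 11 of 18 other ER folding genes were called lower in H1299, 1 was called higher and 6 were not called, beside 27.3% lower and 25.1% higher among all genes (list median log2 -0.56). ERO1B (-0.82), P4HB (-0.58) and SIL1 (-0.56) were among those lower, and SERP1 (0.53) was the one higher. EDEM1 was lower by 2.18 on the log2 scale, with signals of 129 and 282 in H1299 against 692 and 1372 in A549 (limma adjusted p = 0.000222). Against the same shares of all genes, 5 of 20 other degradation genes were called lower (25.0%) and 4 higher, and 4 of 20 ER entry genes lower and 1 higher. Of 23 other ATF4 targets 10 were called lower and 4 higher, of 22 sensor regulators 9 lower and 6 higher, and of 12 cytosolic heat shock genes 1 lower and 2 higher.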

How the data were processed

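The values are MAS5 signal intensities per probe set on a linear scale, deposited by the authors, with biotinylated cRNA made from 6 ug of total RNA per the labels' protocols and MAS5 named in the submitters' processing notes. The version and scaling of that step were not given in the sources used here. The platform annotation gave 1 gene for 41091 of 54675 probe sets, and symbols were checked by gene identifier against a RefSeq table of GRCh38.p14, which changed 0.

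An offset of 29.06, the 20th percentile of all signals, was added before log2. Genes were tested when their brightest single-gene probe set had a mean of at least 78.1. This minimum is the 50th percentile of the mean signals of all probe sets other than controls. limma 3.58.1 in R 4.3.3 modelled cell line and siRNA together over the 4 arrays, with p values adjusted by Benjamini-Hochberg over 12830 genes. Each gene had 1 residual degree of freedom, and moderation by eBayes contributed another 3.74. Ratios within a line compare 1 array with 1 array and have no test. On simulated data with independent noise, the fit was checked only for the slope of planted siRNA changes and the correlation of line effects. How many planted 2-fold changes would be called is not reported here.

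Members, arms and the other gene lists were chosen with earlier results of these data known. Values on every array are given for members called in a test, those 2-fold in a line, sensors and transcription factors. CRELD2, HYOU1, MANF, DNAJB9 and, outside the members, SERP1 fall outside this rule and were added after their values were seen. From each other list, genes called in the siRNA test and the 3 with the largest mean ratio to siRNA are named. Alternatives were no offset or one of 56.5, no signal filter or one at 179, quantile normalization, centring on array medians, averaging of probe sets, leaving out _x_at probe sets, eBayes with trend, no block, and leaving out each line or siRNA. Figures were drawn with matplotlib 3.10.9.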

Additional observations from a re-analysis of the deposited data

Results flagged for a closer look

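For 8 members the log2 ratio of hMOF siRNA to scramble had opposite signs in the lines, beside 31.7% of all genes tested. Each line has a single pair of arrays, so no test of this difference was made. H1299 minus A549, it was 0.45 for HYOU1, 0.18 for DNAJB11, 0.42 for SDF2L1, 0.20 for PDIA6, 0.45 for DNAJB9, -0.25 for DNAJC3, 0.18 for DDIT3 and 0.23 for PPP1R15A. On 7 of the 8 the H1299 ratio was above 0 and the A549 ratio below it. Among the 23 other ATF4 target genes tested, 10 had opposite signs too. All 10 were above 0 in H1299 and below 0 in A549 (43.5%, beside 16.9% of all genes). GDF15, 1 of these, had a difference of 1.67.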

How the results depend on the processing

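With hMOF siRNA, 0 members were called under all 10 alternative fits. Between lines, 2 members were called higher under each, and the number called lower ran from 10 without the block to 16 with the larger offset. Of the 16 members called between lines, 11 kept their call under all alternatives that tested them (SEL1L, CREB3L2, ERN1, XBP1, DNAJC3, DERL1, DERL2, EIF2AK3, DDIT3, TRIB3 and VLDLR), and HSPA5, HSP90B1, PDIA4, ATF6 and ATF3 did not. Without the block, 0 genes were called higher and 0 lower for the siRNA over all genes, KAT8 included (limma adjusted p = 0.9999), and 2015 higher and 2286 lower between lines. Over all genes, 149 rose and 309 fell with hMOF siRNA, and after quantile normalization 294 rose and 381 fell. The share of higher calls was 32.5%, against 43.6% after quantile normalization and 45.7% after centring. Mean log2 changes that turned sign were never called: averaging probe sets gave 0.029 for PDIA4 and -0.23 for DERL1 with the siRNA and 0.018 for DNAJB9 between lines, PDIA6 was at -0.049 with the siRNA without _x_at probe sets, and PDIA6 was at 0.019 between lines after centring. The cause was not tested. Leaving out a line or a siRNA leaves 1 pair of arrays and no test, and those values are the ratios within a line or a siRNA given above. The fits with cell line or siRNA as a block are the analyses paired by line or by siRNA, and the labels number no replicates beyond these.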
